A study of Mus musculus with 12 samples.

Results

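The comparison described here is of culture medium within knock-in (KI) mouse embryonic stem cells: 3 libraries from cells held in LIF were set against 3 from cells held in LIF/2i, across every gene that passed a count filter. These are 6 of the 12 RNA-seq libraries of the study, and 13229 genes were tested. KI cells are homozygous for the A allele of eIF2α (eIF2αA/A), in which the regulatory serine of this translation factor is replaced by alanine, so both media groups carried it. The other 6 libraries are from wild-type (WT, eIF2α+/+) cells in the same media, and their values are given only where the KI response is set beside the WT response. All cells were in a serum-free medium with KnockOut Serum Replacement and leukaemia inhibitory factor (LIF) for 6 days. LIF/2i adds PD0325901, an inhibitor of the kinase MEK, and CHIR99021, an inhibitor of the kinase GSK3. The study asked how eIF2α phosphorylation bears on naive pluripotency, and within KI cells the comparison asks what leaving out both inhibitors changes when that phosphorylation cannot occur. The labels do not say whether the KI line is 1 clone, or whether replicates were separate cultures, so p-values reflect only how these libraries spread, and that spread may be technical.

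As background, MEK activates the kinase ERK, which switches on its own feedback inhibitors and drives stem cells out of the naive state. GSK3 marks β-catenin for destruction, so blocking it raises transcription of Wnt target genes. LIF acts through STAT3 and supports the naive factors. With LIF alone, cells read their own FGF and Wnt signals, and naive genes such as Nanog and Tfcp2l1 are known to be lower and genes of the later, formative epiblast higher.

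Levels are CPM, the usual library-size-scaled count after TMM scaling, and a log2 fold change is LIF over LIF/2i with its standard error (SE). A gene was called where edgeR's quasi-likelihood test gave an adjusted p under 0.05. The SE was worked back from the fold change and the F statistic of that test, so it is approximate. The KI libraries held 6305690 to 9713857 counts in LIF/2i and 2307219 to 4609908 in LIF, and 3 counts equalled 0.309 to 0.476 CPM in LIF/2i, against 0.651 to 1.3 CPM in LIF. Low genes were therefore measured less precisely in LIF. Eif2s1, which encodes eIF2α itself, read 31, 44 and 57.5 CPM in LIF/2i, against 37, 37.9 and 35.9 CPM in LIF, with overlapping groups and no call (adjusted p = 0.53), and counts per gene do not show the changed codon. All 8 stem cell markers were present in every library, with summed levels of 3280 to 4130 CPM in LIF/2i, against 3790 to 4560 in LIF. KI replicate 1 stood apart from replicates 2 and 3 in both media: the 4 Y-linked genes summed to 42.2 and 35.9 CPM there and to 1.51 to 3.8 CPM in the other KI libraries, and Vim, an intermediate filament gene, read 452 and 462 CPM against 77 to 135. In bulk libraries, fewer cells of a type and less RNA per cell cannot be told apart.

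In KI cells 536 genes were higher in LIF (4.05% of those tested) and 664 were lower (5.02%), of which 460 and 393 differed by more than 2-fold. The replicate numbers were taken to pair the KI samples across media, which no label states. In a fit of the 6 KI libraries with that number as a block, 1014 genes were higher (8.4% of the 12072 tested) and 992 lower (8.22%). Single LIF libraries moved these counts: without KI LIF replicate 2 they were 213 and 351, and without replicate 3, the shallowest library, 211 and 287. Leaving out KI replicate 1 in both media gave 412 and 526, and leaving out replicate 3 in both gave 144 and 239. Below, "the block" is this fit of the 6 KI libraries unless all 12 are named, and "held in 4 of 6" means that a call was kept in 4 of the 6 analyses that each left out 1 KI library. Every KI list count below is to be read against the shares over all genes, 4.05% higher and 5.02% lower by the main test. With the block they are 8.4% and 8.22%, so more calls in a list under the block are not by themselves particular to that list. The block also tested fewer members of some lists than the main test, such as 13 of the 18 primitive endoderm genes.

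**Figure D1:**
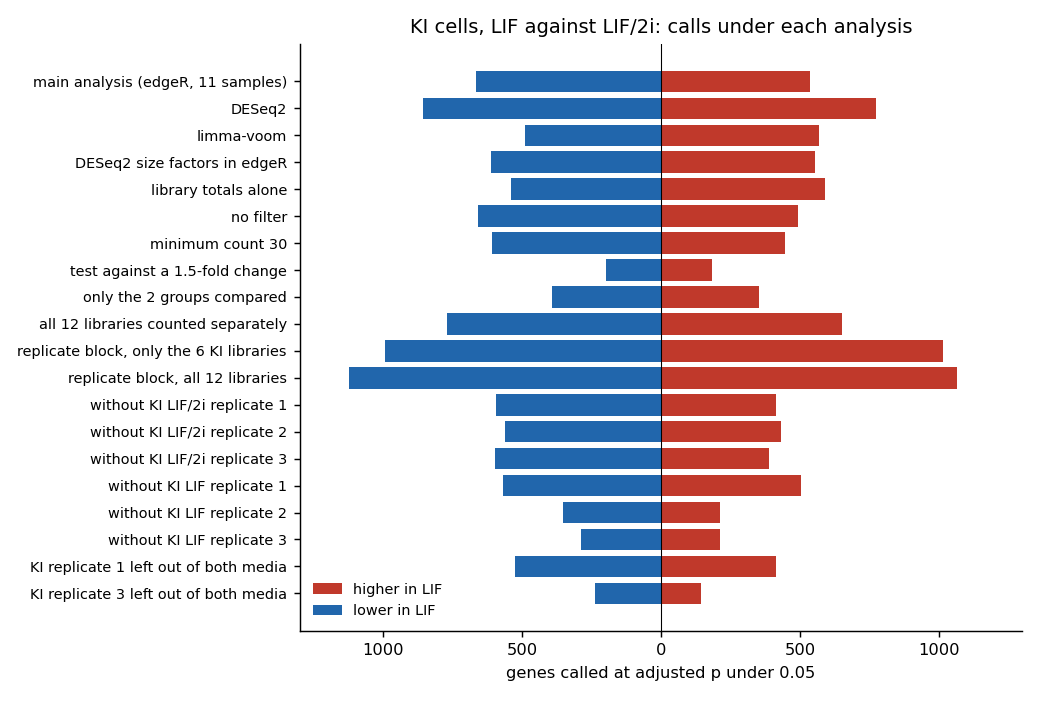
Number of genes called in KI cells under each analysis, with genes higher in LIF to the right of 0 and genes lower in LIF to the left. The main analysis called 536 and 664; the replicate block gave the most calls, and the smallest bars are those of the 1.5-fold test (185 and 198) and of leaving out replicate 3 in both media (144 and 239).

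Among the 15 genes with the largest falls, several encode receptors and transcription factors. Lpar1, a lysophosphatidic acid receptor (chromosome 4, 58435255 to 58553898, GRCm38), read 84.2, 86 and 94.4 CPM in LIF/2i, against 12.8, 7.71 and 5.92 CPM in LIF. The groups were far apart, and the log2 fold change was -3.32 (SE 0.26; adjusted p = 0.00013). Plagl1, an imprinted zinc finger transcription factor (chromosome 10, 13060504 to 13131694), fell from 240, 109 and 108 CPM to 7.61, 11.3 and 11.4 CPM (-3.91 ± 0.37, adjusted p = 0.000301). Its LIF/2i level was highest in replicate 1, yet the lowest LIF/2i value stayed far above the highest LIF value. Spic, an ETS-family transcription factor, fell from 17.4 ± 4.07 to 1.58 ± 0.739 CPM (SD, n = 3 each), and Ddr2, a collagen receptor kinase, from 10.8 ± 1.28 to 0.741 ± 0.556 CPM (SD, n = 3 each). Hoxc12, Sh2d4b, Obox6, Slc24a5, Slc1a1 (a neuronal glutamate transporter), Il34 (a ligand of the CSF1 receptor), Pramel6 and Trpm1 (a cation channel) fell by 3.29 to 4.9 on the log2 scale, and all 8 held in 6 of 6. Stk33, Cttnbp2 and Dio3 completed the 15 but held in 4, 3 and 3 of 6. Stk33 and Cttnbp2 read 33.2 and 38.3 CPM in LIF/2i replicate 1 and under 11 CPM in the other libraries, and Dio3 read 29.3 CPM in LIF/2i replicate 3 alone; all 3 were lost without KI LIF replicate 2 and without replicate 3.

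The largest rise was that of Car4, a membrane-anchored carbonic anhydrase (chromosome 11, 84957786 to 84966044). Its libraries read 0.104, 0.497 and 0.671 CPM in LIF/2i, against 24.6, 49.2 and 76.5 CPM in LIF (log2 fold change 6.93 ± 0.7, adjusted p = 0.00041). The LIF/2i values lie close to the level of 3 counts, so the size of the fold is imprecise, but no LIF library came near them. Myrf, the myelin regulatory factor, rose from 10.1 ± 6.52 to 160 ± 60.1 CPM and Pou3f1, a POU-domain factor of the epiblast and neural lineage, from 2.07 ± 1.76 to 49.8 ± 10.3 CPM (SD, n = 3 each). Insm1, Prph (peripherin), Vgf and Neurod1, which are known from neural and neuroendocrine cells, had log2 fold changes of 4.83, 4.37, 3.91 and 5.03. Neurod1 was uneven within LIF, at 20.7 CPM in replicate 1 against 3.96 and 6.76 in replicates 2 and 3. Wt1, Zeb2 (an inducer of mesenchymal genes), Col1a2 (type I collagen), Speg, Pkdcc, Arap3, Pcdh1 and Zfp608 rose by log2 fold changes of 3.5 to 5.26. All 15 of the rises held in 6 of 6.

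**Figure D2:**
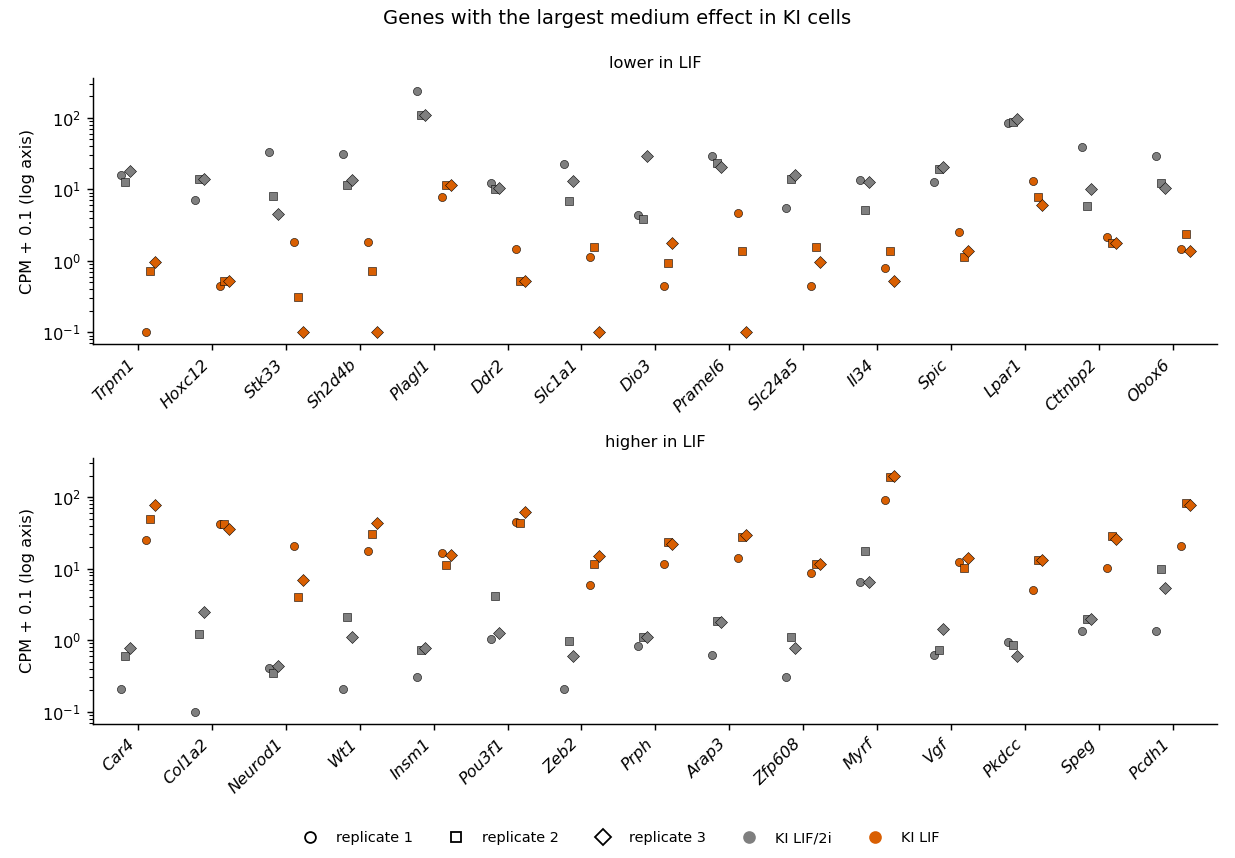
CPM plus 0.1 on a log axis for the 15 genes with the largest fall (top) and the 15 with the largest rise (bottom), ordered by fold change, with 1 point per KI library, grey for LIF/2i and orange for LIF, and the symbol for the replicate. No gene's groups overlap, which the choice of genes required; Car4 goes from 0.104 to 0.671 CPM in LIF/2i to 24.6 to 76.5 CPM in LIF.

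ERK feedback inhibitors damp the signal that PD0325901 blocks. Of 13 tested, 5 rose (4.05% of all genes did), 1 fell and 7 were not called, with a median log2 fold change of 0.71 against -0.03 over all genes tested. Dusp6, the cytoplasmic phosphatase of ERK (chromosome 10, 99263231 to 99267489), read 13.8, 5.97 and 13.7 CPM in LIF/2i, against 85.4, 89.8 and 101 CPM in LIF (3.05 ± 0.29, adjusted p = 0.000301). Its LIF values were close to each other and several times the highest LIF/2i value. Spry4, which blocks receptor signalling upstream of ERK, read 16, 6.59 and 19.3 CPM in LIF/2i, against 50.5, 79.2 and 93.4 CPM in LIF (2.42 ± 0.4, adjusted p = 0.00341). Dusp4, a nuclear ERK phosphatase, rose from 2.03 to 11.8 CPM on average, and Spred1, an inhibitor of RAF activation, from 48.7 to 112 CPM. Spred3 also rose (log2 fold change 1.73) but held in 2 of 6, and Lrig1, which promotes turnover of EGF receptors, fell by 0.94 on the log2 scale and held in 4 of 6. Spred2 and Dusp5 were not called by the main test but passed with the block (adjusted p = 0.028 and 0.00186) and by DESeq2 (0.0213 and 0.0316).

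Among 16 tested transcription factors that ERK induces, 2 rose (4.05% of all genes did) and none fell (median log2 fold change 0.66). Myc, the growth regulator, rose from 13.3, 7.59 and 18.1 CPM to 51.2, 34.6 and 65.5 CPM (1.96 ± 0.39, adjusted p = 0.0103); of the 6 leave-one-out analyses, the 1 without KI LIF replicate 3 lost the call. Elk3, an ETS-family factor, rose from 6.86 to 16.1 CPM on average and lost its call without KI LIF replicates 2 and 3 in turn. Egr1, an immediate early gene, read 0.522, 1.37 and 3.52 CPM in LIF/2i, against 12.4, 8.96 and 5.5 CPM in LIF; it was not called by the main test (2.42 ± 1.01, adjusted p = 0.165), and passed with the block (adjusted p = 0.0278) but not with the block over all 12 libraries (0.0657). The classical readouts of FGF signalling Etv4 and Etv5 were not called. Etv4 spread from 15.1 to 89.9 CPM over the LIF/2i libraries and read 121 to 151 CPM in LIF, without overlap (1.52 ± 0.58, adjusted p = 0.129). Etv5 read 71.2 ± 5.58 and 85.7 ± 6.04 CPM (SD, n = 3 each, adjusted p = 0.294). Of 10 FGF ligands and receptors, Fgfr2 was the 1 called (7.18 to 28.4 CPM on average, adjusted p = 0.0492, held in 2 of 6); with the block it was not (adjusted p = 0.0665) and Fgfr4 was (0.0398), though not with the block over all 12 libraries (0.0515). Fgf4, the FGF that stem cells make, had 262 ± 101 CPM in LIF/2i, against 209 ± 58.2 CPM in LIF (SD, n = 3 each) with no call.

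**Figure D3:**
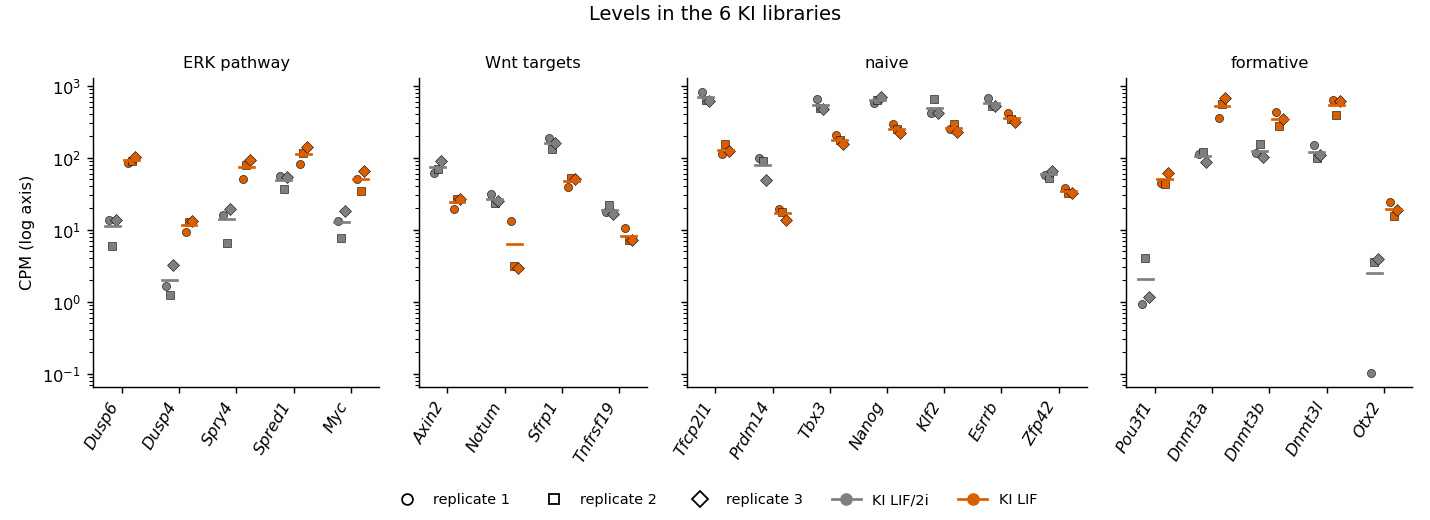
CPM on a log axis in each of the 6 KI libraries for genes of 4 groups, grey for LIF/2i and orange for LIF, with the symbol for the replicate and a bar at the group mean. The ERK and formative genes shown sit higher in LIF and the Wnt and naive genes shown lower, without overlap. All were called and go their panel's way, so this separation follows from the choice of genes. Lrig1 and Epha4, which fell, and Klf4, Etv5 and Cdx1, which were not called, are left out. Dnmt3l, the naive-list member that rose, is plotted with the formative genes. Otx2 spreads from 0.104 to 3.86 CPM in LIF/2i.

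Of 20 Wnt target genes tested, 4 fell (5.02% of all genes did), none rose and 16 were not called, with a median log2 fold change of -0.26 and 9 members above 0. Sfrp1, a secreted Wnt antagonist, read 190, 134 and 159 CPM in LIF/2i, against 39.8, 52.1 and 50.7 CPM in LIF (-1.76 ± 0.22, adjusted p = 0.000811), and it held in 6 of 6. Axin2, the scaffold of the β-catenin destruction complex and the standard reporter of Wnt signalling (chromosome 11, 108920349 to 108950783), read 61.7, 69.8 and 90 CPM in LIF/2i, against 19.7, 27.1 and 26.6 CPM in LIF. Its groups were well separated, but the call was marginal without the block (-1.59 ± 0.43, adjusted p = 0.0383, held in 1 of 6). Notum, an enzyme that inactivates Wnt ligands, read 30.9, 23.3 and 24.8 CPM and then 13.1, 3.13 and 2.96 CPM, and Tnfrsf19, a receptor of the TNF family, fell from 18.7 ± 3.04 to 8.28 ± 1.81 CPM (SD, n = 3 each). The number of Wnt targets that fell was 1 without KI LIF replicate 2 or without replicate 3, and 2 without KI LIF/2i replicate 2. Sp5, a zinc finger factor that Wnt induces, read 9.39, 3.48 and 5.37 CPM in LIF/2i, against 1.04, 0.208 and 0 CPM in LIF; it was not called by the main test (adjusted p = 0.0689) or limma-voom (0.279), and passed with the block (0.00159) and by DESeq2 (0.035). Cdx1, a caudal homeobox factor, had a log2 fold change of -2.26 ± 0.65 and was not called by the main test (adjusted p = 0.0505) or with the block (0.216), but was by DESeq2 (0.035), and Lef1, itself a TCF/LEF factor, was not called (adjusted p = 0.193).

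TCF and LEF factors carry β-catenin to DNA through the core CTTTGAT. RefSeq promoter windows (GRCm38.p6, the 250 bases before an annotated start) were found for 12 of the 20 Wnt targets, and 2 held this core on either strand, against 3.21% of all 32851 windows. Both windows are shown because these genes were lower in LIF, Tnfrsf19 by the main test and Sp5 with the block and by DESeq2; capitals mark the core or its reverse complement. A match is a description of the letters and not a binding site. A gene counted if any of its windows matched, so a share of genes and a share of windows are unlike measures. The ETS core CCGGAAGT was searched for in the same way, and 0 of 11 ERK feedback inhibitors with a window held it, against 2.88% of all windows.
Tnfrsf19 (chr14:61037988-61038237, GRCm38.p6, minus strand): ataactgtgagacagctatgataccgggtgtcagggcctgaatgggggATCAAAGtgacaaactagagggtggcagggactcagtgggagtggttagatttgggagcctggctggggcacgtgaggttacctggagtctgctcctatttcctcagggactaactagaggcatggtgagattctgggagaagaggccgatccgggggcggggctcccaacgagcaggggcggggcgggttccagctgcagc
Sp5 (chr2:70474673-70474922, GRCm38.p6, plus strand): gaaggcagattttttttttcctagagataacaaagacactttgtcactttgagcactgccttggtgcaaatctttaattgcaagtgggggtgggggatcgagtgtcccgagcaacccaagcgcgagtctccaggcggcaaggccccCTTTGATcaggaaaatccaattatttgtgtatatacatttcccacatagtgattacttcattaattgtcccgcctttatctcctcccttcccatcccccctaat

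Of 22 naive pluripotency genes tested, 12 fell, 1 rose and 9 were not called, with a median log2 fold change of -0.81, where 5.02% of all genes fell. Tfcp2l1, a grainyhead-family factor that LIF/STAT3 induces (chromosome 1, 118627945 to 118685168), read 805, 641 and 613 CPM in LIF/2i, against 112, 153 and 122 CPM in LIF (-2.41 ± 0.23, adjusted p = 0.000316). Prdm14, which keeps DNA methylation and FGF signalling low, read 97.7, 91 and 49.5 CPM and then 19.4, 17.9 and 13.5 CPM (-2.22 ± 0.26, adjusted p = 0.000643). Nanog (chromosome 6, 122707489 to 122714633) read 567, 635 and 686 CPM in LIF/2i, against 289, 247 and 220 CPM in LIF (-1.32 ± 0.14, adjusted p = 0.000426). These 3 genes had no overlap between media and held in 6 of 6, as did Tbx3 (540 to 177 CPM on average), Tcl1 (79.3 to 28.7 CPM), Klf2 (496 to 258 CPM) and Cdh1, the epithelial cadherin (729 to 440 CPM). Klf5, Fbxo15 and Zfp42, the last the classical Rex1 marker, held in 4 of 6, and Esrrb, an orphan nuclear receptor, fell only from 572 ± 87.3 to 360 ± 52.8 CPM (SD, n = 3 each) and held in 3 of 6. Nr5a2, another nuclear receptor, was called by the main test (adjusted p = 0.0398) and not with the block (0.07; 0.0468 over all 12 libraries), while Nr0b1, Pecam1, Tet2 and Nlrp4f were not called by the main test and were called lower with the block, Nr0b1 and Tet2 also by DESeq2. Klf4, which STAT3 induces, was not called (343, 287 and 249 CPM in LIF/2i, against 197, 239 and 222 CPM in LIF, adjusted p = 0.123). The member that rose was Dnmt3l, described with the DNA methylation genes. Fewer members fell without KI LIF replicate 3 (7) and without replicate 2 (8), and 11 fell without KI replicate 1 in either medium.

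LIF was present in both media. Among 17 tested LIF/STAT3 targets 5 fell (5.02% of all genes did) and none rose (median log2 fold change -0.24). Besides Tfcp2l1 they included Spp1, the secreted phosphoprotein osteopontin (682 ± 59.4 to 257 ± 21.2 CPM; SD, n = 3 each), Bcl3 and Ifitm3. Bcl3 and Ifitm3 held in 2 of 6, and the count was 3 without KI LIF replicate 2, without replicate 3 or without KI LIF/2i replicate 2.

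Of 16 core pluripotency factors tested, 4 rose (4.05% of all genes did) and none fell (median log2 fold change 0.32). Pou5f1 read 1080, 1050 and 804 CPM in LIF/2i, against 1000, 1020 and 1160 CPM in LIF, with overlapping groups and no call (0.12 ± 0.13, adjusted p = 0.659), and Sox2 was not called (0.29 ± 0.16, adjusted p = 0.283). Utf1, a chromatin factor of undifferentiated cells, rose from 430 ± 105 to 1120 ± 335 CPM (SD, n = 3 each) and held in 6 of 6. Lin28a, which blocks let-7 maturation, and Phc1, a Polycomb subunit, also rose but held in 2 of 6.

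Of 21 formative and primed epiblast genes tested, 10 rose (4.05% of all genes did), 1 fell and 10 were not called, with a median log2 fold change of 1.38, and 6 rose without KI LIF replicate 3. Pou3f1 (chromosome 4, 124656807 to 124660655) read 0.939, 4.1 and 1.17 CPM in LIF/2i, against 44.6, 43.1 and 61.7 CPM in LIF (4.56 ± 0.59, adjusted p = 0.000973). Sox4, an SRY-box factor, rose from 13.4 ± 1.44 to 58.9 ± 2.14 CPM (SD, n = 3 each). Otx2, which directs enhancers of the formative state, read 0.104, 3.61 and 3.86 CPM and then 24.2, 15.4 and 19 CPM; it was called (2.99 ± 0.67, adjusted p = 0.0175) and with the block over all 12 libraries (0.0178), but not with that over the 6 KI libraries (0.07) or without KI LIF replicate 3. Sall2, Sfrp2, Grhl2 and Sox11 also rose, Sall2 holding in 6 of 6 and the others in 4, 2 and 2. Epha4, an ephrin receptor, was the member that fell (201 to 61.8 CPM on average, adjusted p = 0.0134). Fgf5, the usual marker of this state, stayed under the filter with 0 to 1 counts in LIF/2i libraries and 2 to 4 in LIF libraries.

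Of 12 DNA methylation writers and erasers tested, 3 rose, 2 fell and 7 were not called (median log2 fold change 0.09), where 4.05% of all genes rose and 5.02% fell. The de novo methyltransferase Dnmt3a (chromosome 12, 3806007 to 3914443) read 114, 120 and 86.2 CPM in LIF/2i, against 350, 562 and 671 CPM in LIF (2.3 ± 0.29, adjusted p = 0.000926). Dnmt3b, the other de novo enzyme called, read 117, 156 and 103 CPM and then 425, 276 and 342 CPM (1.47 ± 0.2, adjusted p = 0.00137). Their cofactor Dnmt3l read 149, 98.9 and 109 CPM and then 625, 397 and 618 CPM; its main call was marginal (2.2 ± 0.62, adjusted p = 0.0453) and was lost without any 1 of the KI libraries, while the block gave an adjusted p of 1.71e-05 over the 6 KI libraries and 0.0618 over all 12. Uhrf1, which guides maintenance methylation to newly copied DNA, fell from 286 ± 13.7 to 161 ± 1.79 CPM (SD, n = 3 each), and Gadd45b, a stress protein linked to demethylation, from 46.2 to 15.7 CPM on average, holding in 3 of 6. Of 23 tested germline genes that methylation is known to silence, Piwil2 rose (24.8 ± 7.91 to 71.5 ± 20.2 CPM; SD, n = 3 each) and Dazl (139 ± 48.3 to 42.9 ± 21.3 CPM) and Fkbp6 fell. With the block 5 of 21 tested rose and 2 fell, the added ones being Ddx4, Tex11, Piwil4 and Mov10l1.

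**Figure D4:**
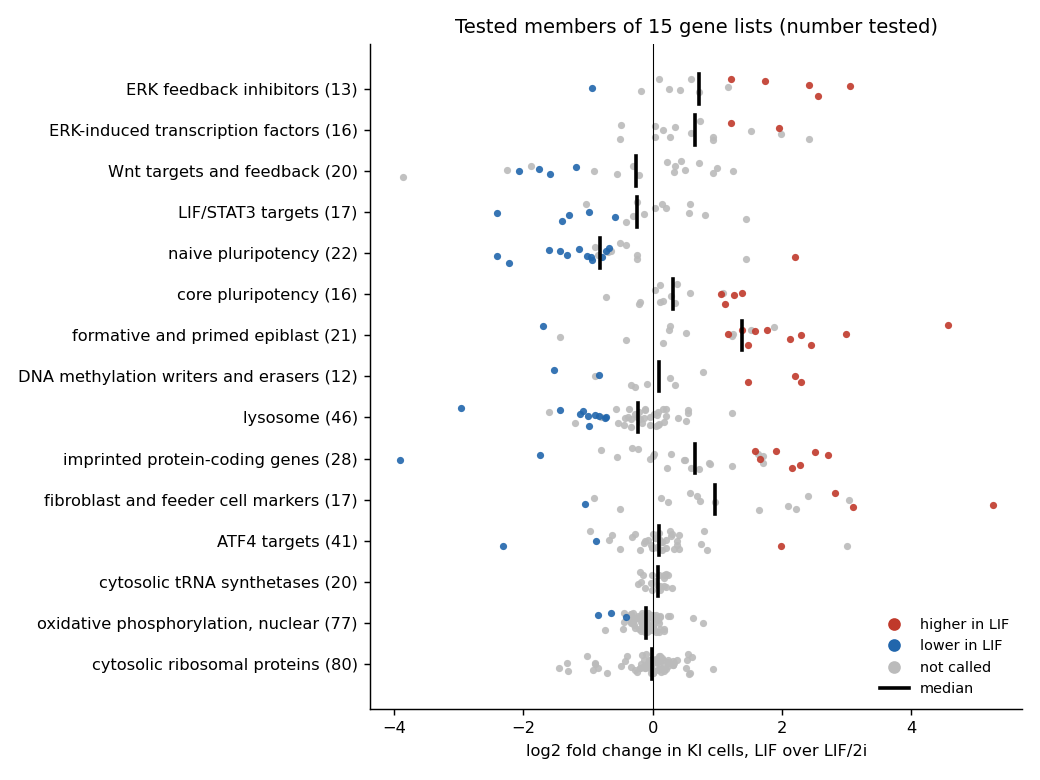
Log2 fold change in KI cells of every tested member of 15 of the gene lists, red where called higher in LIF, blue where called lower and grey where not called, with a black bar at the median and the number tested in brackets; height within a row has no meaning. The naive list has 12 blue points and a median of -0.81, the formative list 10 red points and a median of 1.38, and the tRNA synthetases and ribosomal proteins have no coloured point.

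Of 16 tested neuroectoderm genes 4 rose (4.05% of all genes did), 1 fell and 11 were not called (median log2 fold change 0.92). Dll1, a Notch ligand, rose from 2.1 ± 1.62 to 19.1 ± 3.43 CPM (SD, n = 3 each), and Hes1, the Notch effector, fell from 47.9 ± 1.93 to 23.5 ± 7.05 CPM (SD, n = 3 each, held in 4 of 6). Neurod1, given above, and Pax6, a paired box factor whose call held in 1 of 6, also rose. Sox1, the earliest neural marker, read 3.34, 6.47 and 0.671 CPM in LIF/2i, against 8.99, 33.1 and 36.4 CPM in LIF, with replicate 1 lowest of the LIF libraries; it was called (adjusted p = 0.0165) and with the block over all 12 libraries (0.0137), but not with that over the 6 KI libraries (0.0511), nor without KI LIF replicate 2 or 3. The 4 defining neural markers together summed to 26.9 to 69.5 CPM in LIF/2i, against 75 to 95.1 CPM in LIF. Tubb3, the most abundant of them, read 22.7, 57.2 and 35.4 CPM in LIF/2i, against 76.8, 37.5 and 39.3 CPM in LIF. Its groups overlapped, as did those of Neurog1, while those of Sox1 and Pax6 did not. Sums of the defining markers overlapped for primitive endoderm (4.86 to 6.22 CPM in LIF/2i, 2.77 to 11.9 CPM in LIF). They also overlapped for trophectoderm (6.34 to 16.8 and 10.4 to 17.5 CPM). Of 17 trophectoderm genes 2 rose and 1 fell: Hand1 rose from at most 0.249 CPM to 3.11 to 8.03 CPM (5.29 ± 0.75, adjusted p = 0.00161), Krt8 rose with a call that held in 1 of 6, and Tead4 fell, with its LIF/2i level highest in replicate 1. With the block 5 of 15 tested rose and 1 fell. Cdx2 was under the filter and Elf5 had no count in any KI library. Of 18 primitive endoderm genes Lamb1, a laminin chain, rose clearly (91.2, 57.7 and 92.9 to 322, 286 and 300 CPM; 1.91 ± 0.19, adjusted p = 0.000355), and Lamc1, another laminin chain, fell from 918 ± 17.9 to 582 ± 39.1 CPM (SD, n = 3 each). Lrp2 and Cubn, receptors of absorptive endoderm, also rose, but Lrp2 lost its call with the block (adjusted p = 0.171; 0.0643 over all 12 libraries) and Cubn held in 1 of 6. The defining endoderm factor Gata6 was not called and read at most 4.23 CPM. With the block 4 of 13 endoderm genes tested rose and 2 fell. Of 5 tested mesendoderm genes Gsc, a homeobox gene, fell and held in 2 of 6.

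Of 17 fibroblast and feeder cell markers tested, 3 rose (4.05% of all genes did), 1 fell and 13 were not called (median log2 fold change 0.97). Col1a2 read 0, 1.12 and 2.35 CPM in LIF/2i, against 42.2, 42.3 and 35.5 CPM in LIF (5.26 ± 1.09, adjusted p = 0.0118), Col1a1 rose from 8.17 to 56.9 CPM and Acta2, smooth muscle actin, from 6.12 to 51.5 CPM on average. Fn1, fibronectin, fell from 4020 ± 640 to 1950 ± 300 CPM (SD, n = 3 each). The 6 defining fibroblast markers summed to 8.14, 12.9 and 18.8 CPM in LIF/2i, against to 87.1, 131 and 108 CPM in LIF. Of these Prrx1 was at 0 in 5 of the 6 libraries and Thy1 read at most 4.58 CPM; whether cells of that kind have a part in these rises was not tested. The Col1a1 call held in 1 of 6, and without KI replicate 1 in either medium only 1 member rose. With the block 6 of 15 tested members rose.

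Signals of the TGF-β superfamily moved gene by gene. Among 16 Nodal and TGF-β genes 1 rose and 2 fell, where 4.05% of all genes rose and 5.02% fell. The Nodal antagonist Lefty2 read 48.8, 43 and 31.2 CPM in LIF/2i, against 3.46, 15.6 and 7.19 CPM in LIF (-2.16 ± 0.49, adjusted p = 0.0179, lost without KI LIF replicate 3), while its neighbour Lefty1 rose from 11.3 ± 5.16 to 35.5 ± 8.92 CPM (SD, n = 3 each, adjusted p = 0.0436, held in 1 of 6). Pcsk6, a convertase that matures Nodal, fell from 175 ± 5.26 to 76.9 ± 24.1 CPM (SD, n = 3 each). With the block 6 rose and 2 fell; the added ones included Gdf1, Ski, Foxh1 and Skil. Of 14 BMP genes Bmp4 rose (2.65 to 15.7 CPM on average, adjusted p = 0.0133, lost without KI LIF replicate 3), and Id1, a BMP target, and Dusp9 were not called by the main test and passed with the block; for Id1 the adjusted p was 0.092 in the main test, 0.0376 with the block and 0.0659 with the block over all 12 libraries. Of 13 retinoid genes 3 rose and 1 fell. Rarg, a retinoic acid receptor, rose from 106, 92.1 and 65.2 to 196, 201 and 244 CPM (1.28 ± 0.18, adjusted p = 0.0017), and Cyp26a1, which degrades retinoic acid, from at most 0.249 CPM to 2.07 to 2.96 CPM. Crabp1 rose and Aldh1a2, which makes retinoic acid, fell, each holding in 1 of 6. With the block 4 rose and 2 fell.

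Of 28 imprinted genes tested, 7 rose (4.05% of all genes did) and 2 fell, with a median log2 fold change of 0.66. Besides the fall of Plagl1, Mest, a hydrolase-fold protein, rose from 119, 78.8 and 116 to 379, 304 and 310 CPM (1.66 ± 0.23, adjusted p = 0.00128). Peg3, a zinc finger factor, rose from 205, 279 and 303 to 747, 701 and 913 CPM (1.58 ± 0.25, adjusted p = 0.00278). Ddc, aromatic amino acid decarboxylase, fell and held in 4 of 6. Phlda2, Nnat, Dlk1, Sgce and Peg10 rose but held in 1 to 3 of 6, and Sgce and Peg10, which neighbour each other, were not called with the block (adjusted p = 0.0536 and 0.285), Sgce being called with that over all 12 libraries (0.0453). Only 2 members rose without KI LIF replicate 2 or without replicate 3, and 3 without KI LIF/2i replicate 2.

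Of 46 lysosomal genes tested, 10 fell (5.02% of all genes did), none rose and 36 were not called (median log2 fold change -0.24, with 15 members above 0). Glb1, β-galactosidase, read 217, 241 and 231 CPM in LIF/2i, against 124, 106 and 96 CPM in LIF (-1.08 ± 0.15, adjusted p = 0.00138). The protease Ctsc had the largest fold of the 10, from 120, 41.4 and 58 to 6.57, 13.3 and 7.19 CPM (-2.96 ± 0.45, adjusted p = 0.00228). Ctsa, which protects β-galactosidase (216 ± 25.5 to 109 ± 16.9 CPM), and Grn, progranulin (313 ± 24.5 to 167 ± 35.2 CPM; SD, n = 3 each), fell by about as much as Glb1. Npc2, Hexa, Asah1, Ctsb and Tfeb, the last the transcription factor of lysosome genes, were among the others. Of these, Hexa and Tfeb held in 3 of 6 and Ctsb in 1. The count was 6 without KI LIF replicate 3, 8 without KI replicate 1 in either medium, and 15 lower with 3 higher under the block; DESeq2 called 15 lower and 1 higher. TFEB-family factors bind the CLEAR element, whose core is TCACGTGA. Of 38 lysosomal genes with a RefSeq window 6 held it in any window, against 0.785% of all windows (not of genes). The window of Ctsa is shown as the 1 among them whose gene fell, with the core in capitals.
Ctsa (chr2:164833523-164833772, GRCm38.p6, plus strand): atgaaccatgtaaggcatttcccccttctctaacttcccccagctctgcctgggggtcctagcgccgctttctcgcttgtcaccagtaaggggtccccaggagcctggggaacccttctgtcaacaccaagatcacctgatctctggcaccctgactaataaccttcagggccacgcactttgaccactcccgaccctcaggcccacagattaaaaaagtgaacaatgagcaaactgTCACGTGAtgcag

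Metabolic lists changed in few members, where 4.05% of all genes rose and 5.02% fell, or 8.4% and 8.22% with the block. Of 24 glycolysis genes 1 rose and 3 fell. Pdk1, a pyruvate dehydrogenase kinase, rose from 45, 36.9 and 29.8 to 162, 163 and 196 CPM (2.21 ± 0.29, adjusted p = 0.00111). Slc2a3, a glucose transporter, fell from 1530 ± 147 to 880 ± 91.4 CPM (SD, n = 3 each), and Hk1 and Pfkp fell with calls that held in 3 and 2 of 6. With the block 5 glycolysis genes rose and 4 fell. Of 77 nuclear oxidative phosphorylation genes 3 fell (Cox5a, Uqcr10 and Atp5c1) and none rose; Cox5a fell from 236 ± 9.53 to 132 ± 5.97 CPM (SD, n = 3 each) and held in 6 of 6, Uqcr10 held in 1 and Atp5c1 in 0. Of 25 cholesterol genes 2 rose and 1 fell, the last being Ebp, a sterol isomerase (61.4 to 23.7 CPM on average, held in 4 of 6). Among 20 NRF2 targets the glutathione transferase Gsta3 fell from 10.8 ± 0.906 to 1.19 ± 0.448 CPM (SD, n = 3 each), Gsr fell and Srxn1 rose, the last holding in 1 of 6. With the block 2 rose and 4 fell.

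Of 22 G1 regulators, the cyclin-dependent kinase inhibitor Cdkn1a fell from 85.6, 117 and 126 to 41.1, 35.2 and 24.9 CPM (-1.69 ± 0.27, adjusted p = 0.00284), Cdk2 fell by 0.48 on the log2 scale and held in 2 of 6, and Ccnd2 rose (1.23 to 5.9 CPM on average, lost without KI LIF replicate 3). With the block 3 of 20 G1 regulators tested rose and 4 fell. Cdkn1a and Ccnd2 also stand on the p53 list, where 2 of 29 rose and 1 fell, against 5 and 3 with the block. Over all genes 4.05% rose and 5.02% fell, against 8.4% and 8.22% with the block. In 2 other p53 targets replicate 1 stood apart: Zfp365 read 26.2 and 91.3 CPM there and 5.84 to 18.2 CPM in the other libraries, and Trp73 17.7 and 42.5 CPM against 1.37 to 3.96 CPM. Neither was called by the main test, DESeq2 or limma-voom, and both passed with the block, which takes the replicate level out (adjusted p = 0.00124 and 0.0188).

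The integrated stress response is the pathway that the A allele interrupts. Atf4, whose translation eIF2α phosphorylation raises, read 249, 351 and 381 CPM in LIF/2i, against 263, 331 and 388 CPM in LIF, with full overlap (log2 fold change 0.00 ± 0.18, adjusted p = 0.998). Of 41 tested ATF4 targets 1 rose and 2 fell in KI cells (4.05% and 5.02% of all genes did), with a median log2 fold change of 0.09. With the block 3 of 37 tested rose and 3 fell, where 8.4% and 8.22% of all genes did. In WT cells 18 of the 41 rose and none fell (median 0.88), where 6.3% of all genes rose and 6.65% fell. Without WT LIF replicate 2, 13 rose. Psat1, a serine synthesis enzyme, had a log2 fold change of 0.28 in KI cells and 1.67 in WT cells, and Trib3, a pseudokinase that ATF4 induces, had 0.8 ± 0.28 (adjusted p = 0.107; 0.0367 with the block) and 2.24. Of 20 cytosolic tRNA synthetases none was called in KI cells by edgeR's quasi-likelihood test (0 at an unadjusted p under 0.05) or by DESeq2, and 7 rose in WT cells. Over all 13229 genes 3132 had an unadjusted p under 0.05 in KI cells by edgeR's test. Aars, the alanyl enzyme, read 504, 511 and 541 CPM and then 498, 461 and 473 CPM (-0.12 ± 0.12, adjusted p = 0.616), against 0.7 in WT cells.

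The test of the difference between the KI and WT medium effects called no gene (0% of 13229; smallest adjusted p = 0.134) by edgeR's quasi-likelihood test, with 792 (5.99%) at an unadjusted p under 0.05 and 22 called by DESeq2. At that unadjusted threshold were 22 of the 41 ATF4 targets and 9 of the 20 tRNA synthetases, against 5.99% of all genes; the members were not tested as a list. Asns, asparagine synthetase (chromosome 6, 7675169 to 7693254), fell instead. It read 1380, 962 and 963 CPM in KI LIF/2i and 292, 198 and 180 CPM in KI LIF (-2.31 ± 0.25, adjusted p = 0.000468), the groups lying far apart. In WT cells its log2 fold change was -0.77 (adjusted p = 0.0827). Slc7a1, an arginine transporter, fell in KI cells with a call that no leave-one-out analysis kept, and Cebpb, a bZIP factor, rose from 5.71 ± 2.77 to 22.7 ± 9.68 CPM (SD, n = 3 each, lost without KI LIF replicates 2 and 3 in turn). Within the eIF2 machinery Eif2b5, a catalytic subunit of the exchange factor eIF2B (chromosome 16, 20498817 to 20509323), fell from 742, 574 and 675 to 314, 271 and 267 CPM (-1.22 ± 0.14, adjusted p = 0.000643) and by a like amount in WT cells (-1.18). Eif2b4, another subunit, fell by 0.53 on the log2 scale and held in 1 of 6.

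**Figure D5:**
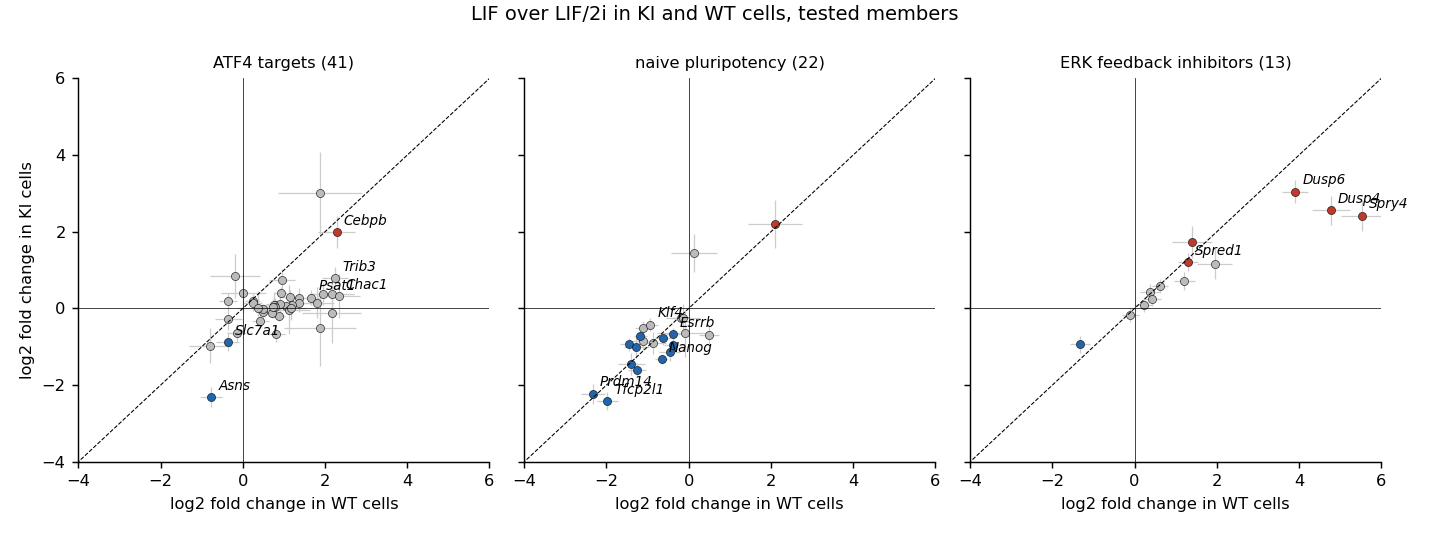
Log2 fold change of LIF over LIF/2i in WT cells (horizontal) and KI cells (vertical) for tested members of 3 lists, with standard errors and a dashed line of equality; red and blue mark genes called higher and lower in KI cells. Most ATF4 targets lie near 0 in KI cells (median 0.09) and to the right of 0 in WT cells (median 0.88), with Asns at -2.31 and -0.77, while naive genes lie near the line (medians -0.81 and -0.76).

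The WT values rest on 5 samples, since replicates 1 and 3 of WT LIF, which differed by less than sampling noise, were counted as 1 sample, their mean. Beside WT cells the other lists read as follows. The naive list had a median of -0.81 in KI and -0.76 in WT cells, with 12 members falling in each. Over all genes 5.02% fell in KI and 6.65% in WT cells. The ERK feedback list had 0.71 and 1.21. Spry4 had a log2 fold change of 2.42 in KI and 5.53 in WT cells, a difference with an unadjusted p of 0.000473 that did not pass adjustment. Its LIF levels overlapped between genotypes (50.5, 79.2 and 93.4 CPM in KI, 82.5 and 54.8 CPM in WT cells). In LIF/2i it read 16, 6.59 and 19.3 CPM in KI cells, against 1.58, 2 and 0.304 CPM in WT cells. The last value lies under the level of 3 counts in that library (0.927 CPM). The Wnt list had -0.26 and -0.91, with 4 and 9 members falling. The lysosome list had -0.24 and -0.16, with 10 members falling in each. Lists with few or no calls in KI cells were the ER chaperones (0 of 20, median -0.16), the cytosolic ribosomal proteins (0 of 80, median 0.00), the mitochondrially encoded genes (0 of 13, median -0.24) and the G2/M genes (0 of 22, median 0.02), by edgeR's quasi-likelihood test. DESeq2 called 3 of the ribosomal and 1 of the mitochondrially encoded genes, and the block 4 of the ribosomal genes. At an unadjusted p under 0.05 there were 1 ER chaperone, 13 ribosomal, 2 mitochondrially encoded and 1 G2/M gene. Over all 13229 genes 3132 reached that threshold in KI cells by edgeR's quasi-likelihood test. By the main test 4.05% of all genes rose and 5.02% fell in KI cells, against 8.4% and 8.22% with the block. Of 29 actin and adhesion genes 2 rose and 3 fell, with Cnn1, calponin, rising from 0.299 ± 0.045 to 3.86 ± 0.963 CPM (SD, n = 3 each). With the block 7 of 28 tested rose and 4 fell. Of 14 antigen presentation genes Bst2, an interferon-induced membrane protein, rose from 24.7 to 96.1 CPM on average and Ifitm1 and Ifitm3 fell, with calls that held in 4, 1 and 2 of 6; the block gave 3 higher and 3 lower.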

How the data were processed

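RNA-seq libraries were made from rRNA-depleted, fragmented RNA of cycloheximide-washed cells, prepared like ribosome-profiling libraries, per the labels' protocols. Tools listed in the submitters' processing notes were UMI-tools 1.0.1, Bowtie 1.3.0 and cutadapt 3.4; for the counter, build and annotation, the names were not given in the sources used here. The authors deposited 1 table of whole-number read counts per gene, over the coding sequence of 1 transcript each, for all 12 libraries, so reads of near-identical gene copies may be split or lost. Gene positions came from GENCODE M21 (GRCm38), matched by transcript.

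From the counts, genes were kept by edgeR's filterByExpr (minimum count 10), scaled by TMM (factors 0.946 to 1.04) and tested by edgeR 4.0.16's robust quasi-likelihood test in R 4.3.3, with 1 mean per group, two-sided, and Benjamini-Hochberg adjustment over all 13229 genes at 0.05. Replicates 1 and 3 of WT LIF differed by less than sampling noise (chi-square per degree of freedom 0.858) and were averaged, leaving 11 samples and 7 residual degrees of freedom. The scripts were tested on simulated data. The replicate numbers were checked for pairing: deviations from the group means correlated between same-numbered KI libraries at 0.5, 0.37 and 0.22 over 13229 genes (replicates 1, 2 and 3), and between other numbers at -0.42 to 0.21. Since all 3 pairs exceeded 0.1 the numbers were taken to pair the samples, a reading of the data that no label states. LIF/2i replicate 2 and LIF replicate 3 also exceeded 0.1, at 0.21, so the pairing of numbers 2 and 3 is less clear than that of number 1. Deviations from a group mean cancel within the group. With replicate 1 apart in both media, replicates 2 and 3 therefore tend to correlate across media whichever way they pair. The 0.1 level could thus not establish the pairing of numbers 2 and 3. The block was fitted to the 6 KI libraries, with 2 residual degrees of freedom.

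Alternatives were DESeq2 1.42.0, limma-voom (limma 3.58.1), other scalings and filters, a test against a 1.5-fold change, other sample sets, the block, and each library left out. Leaving out KI replicate 1 or 3 in both media was added after seeing the data. The members and the gene lists were chosen with earlier results of these data known. The text names the 15 largest rises and 15 largest falls (mean of at least 5 CPM, no overlap), up to 4 called genes per list by p, or where fewer than 2 were called the most abundant up to 2, a preset panel, and list members whose call changed with the block. Other named genes complete a list's called members and were chosen after their values were seen. Promoter windows came from RefSeq (GRCm38.p6). Results for some genes that this rule selects are not reported here.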

Additional observations from a re-analysis of the deposited data

How the results depend on the processing

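The KI counts of 536 higher and 664 lower were 185 and 198 in a test against a 1.5-fold change and 354 and 393 in a fit of only the 2 KI groups. With the replicate block they were 1014 and 992 over the 6 KI libraries and 1063 and 1123 over all 12. Leaving out 1 KI library gave 211 to 503 higher and 287 to 597 lower, and leaving out KI replicate 3 in both media 144 and 239. DESeq2, limma-voom, other scalings, other filters and leaving out KI replicate 1 in both media stayed within 1.5 times. The WT counts of 834 and 880 were 379 and 336 against a 1.5-fold change, 1711 and 1960 with the block, and 201 to 889 and 189 to 886 with 1 WT library left out, the lowest without WT LIF replicate 2; with all 12 libraries counted separately 1496 genes fell. The test of the difference between KI and WT called 0 genes, 22 by DESeq2, 1 with all 12 libraries separate, 30 with the block and 0 to 4 with 1 library left out. The cause of these shifts was not tested.

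Of 115 called genes given by the naming rule none changed direction under any alternative; calls lost numbered 0 with DESeq2, 18 with limma-voom, 3 and 9 with other scalings, 13 with no filter, 4 of 112 at a minimum count of 30, 49 against a 1.5-fold change, 27 in the fit of only the 2 KI groups, 1 with all 12 libraries separate, 14 to 46 with 1 KI library left out, and 22 and 55 with KI replicate 1 or 3 left out of both media. With the block over the KI libraries 5 of them lost the call, and of 17 uncalled ones 5 gained it; over all 12 libraries 4 lost it and 3 gained it. Uncalled genes near 0 changed sign: Atf4 read -0.02 with no filter and with KI replicate 1 left out of both media, -0.01 with replicate 3 left out, and -0.16 to 0.14 with 1 library left out. Pou5f1 read 0 to 0.19 with 1 library left out and -0.07 with replicate 3 left out of both media, where Eif2s1 read 0. The shallower KI LIF libraries limit genes near 1 CPM, and their folds are imprecise.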
